A study of Mus musculus with 23 samples.

Results

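Germinal vesicle (GV) oocytes of 3-month-old female mice that carried Cxxc1 fl/fl and Gdf9-Cre were compared with GV oocytes of wild-type females of the same age, with 3 RNA sequencing libraries in each group. The members described are the genes with an FPKM (fragments per kilobase of transcript scaled to the mapped fragments of a library) of at least 1 in at least 2 of these 6 libraries, 11987 of the 24411 genes listed. The study also holds libraries of 3-week-old females, wild type or Cxxc1 fl/fl with Zp3-Cre, and of zygotes and 2-cell embryos, 23 libraries in all. Gdf9-Cre is a transgene driven by an oocyte promoter that is active from an early follicle stage, before most of oocyte growth, and it acts in oocytes and not in the follicle cells. The label wild type does not say whether those females carried the floxed allele or the Cre. The labels do not say how many oocytes entered a library, or whether each library came from its own females. A p-value here thus covers only how much libraries vary, which can be technical. For genes on the deposited scale that spread was pooled over all 23 libraries, zygotes and 2-cell embryos included.

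Cxxc1 encodes CFP1, a zinc-finger protein that binds unmethylated CpG and is a subunit of the SETD1A and SETD1B complexes, which methylate lysine 4 of histone H3 (H3K4) at active promoters. A growing mouse oocyte makes and stores the RNA that meiosis and the first divisions will use, and a fully grown GV oocyte rests in meiotic prophase with transcription nearly silent. H3K4 methylation and DNA methylation are both laid down on oocyte chromatin during this growth.

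The targeted gene was checked first. Cxxc1 was at 35.7, 36 and 38.5 FPKM in the wild-type libraries and at 0.975, 0.698 and 1.10 in the Gdf9-Cre libraries. All 3 deletion libraries were far below all 3 wild-type libraries (log2 fold change -4.30 ± 0.26 SE, adjusted p = 4.34e-10, limma on log2(FPKM + 1) with Benjamini-Hochberg adjustment). The deleted exons are not given in the labels, and FPKM covers the whole gene. All 12 oocyte markers were above 1 FPKM in every library, with summed values of 11125 to 11332 FPKM in wild-type oocytes and 9387 to 9661 after deletion.

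FPKM is a share of a library, and the table also holds control RNAs that bear on this. It lists 92 entries named for the ERCC synthetic spike-in RNAs, which are added to RNA samples as a fixed reference, and entries named RGC-GFP, RGC-mRFP and RGC-CRE. These 95 entries were left out of the members and of every test of genes. Summed over the ERCC entries, the wild-type libraries held 461, 526 and 575 FPKM and the Gdf9-Cre libraries 1943, 1408 and 1419. Spike-in RNA thus took a 3.05-fold larger share after deletion, and the groups did not overlap (exact two-sided permutation test over the libraries, p = 0.1, the smallest that 3 against 3 libraries can give). Each of the 8 ERCC entries at 10 FPKM or more in all 6 libraries was higher, by 2.54-fold to 3.25-fold. RGC-mRFP stood apart likewise, at 285, 201 and 279 FPKM in the wild-type libraries against 989, 684 and 681. How much spike-in was added, per oocyte or per library, is not given in the sources used here, so fewer oocytes in a library and less RNA per oocyte cannot be told apart.

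**Figure D1:**
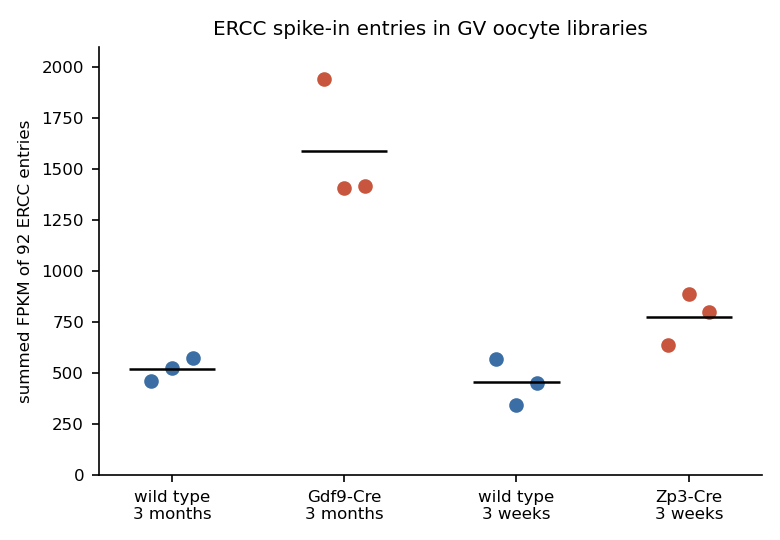
Summed FPKM of the 92 ERCC spike-in entries (y axis, starting at 0) in each GV oocyte library, with points for libraries and lines for group means. The 3-month Gdf9-Cre libraries sit between 1408 and 1943, above the 3-month wild-type libraries at 461 to 575, and the 3-week Zp3-Cre libraries at 636 to 889 sit above the 3-week wild-type libraries at 341 to 571.

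The words rose and fell below therefore describe a gene's FPKM, its share of the library, and only for genes called at an adjusted p under 0.05. Of the 11987 members, 4465 were called higher (37.2%) and 2069 lower (17.3%), and the median log2 fold change over all members was 0.22. With at least a 2-fold change, 1417 were called higher (11.8%) and 420 lower (3.50%). Of these 1837 members, 1817 had groups that did not overlap. Such separation was common among all members, at 5843 with higher and 2931 with lower values after deletion. It therefore adds little to these 2-fold counts. The higher share of the calls, 68.3% as deposited, was 47.4% with median-of-ratios scaling and 47.5% with quantile normalization, which both centre the members near 0. Where the calls of a gene list described below moved by at least 2 genes and over 1.5 times with these scalings or without 1 of the 6 libraries, those counts follow its median in parentheses, higher and then lower. Fits with fewer libraries of other stages, or with library weights, called more members in several lists. Listed genes that passed the FPKM filter through 1 group alone had to be higher in that group, so every list count below has this limit. The counts are to be set beside the 37.2% higher and 17.3% lower of all members, and several lists lie near these shares. When the 6 libraries were instead set to equal ERCC sums, 565 members were called higher and 9459 lower, with a median log2 fold change of -1.07. That fit held these 6 libraries alone, and the deposited values in such a fit gave 5428 higher and 2585 lower. Counts that cross the 2 scales below therefore differ in the fit as well as in the scaling. The ERCC scaling was chosen after seeing the data, and its fold changes are given as ERCC-scaled beside the deposited ones. All 420 members that fell at least 2-fold were also called lower on the ERCC scale, as were 5040 of the 5453 members not called as deposited. That scaling lowers every deletion library relative to wild type, so it was bound to keep the large falls and is no test of them. Of the 1417 that rose at least 2-fold, 503 were called higher on the ERCC scale, 848 were not called and 66 were called lower.

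Library depth cannot be read directly from FPKM, but the steps between low values put the depths at 0.894 to 1.39 times that of wild-type library 1, with no separation of the groups. Genes at 1 FPKM or more numbered 10525 to 10594 in wild-type libraries and 11516 to 11749 in deletion libraries. Transcripts of the cells that surround an oocyte were higher in the deletion libraries. The 32 granulosa and cumulus cell markers summed to 164 to 175 FPKM in wild-type libraries and 217 to 312 in deletion libraries, with 7 to 9 and 19 to 21 of them at 1 FPKM or more. Theca and stroma markers summed to 3.59 to 4.31 against 14.9 to 28.0 FPKM, leukocyte markers to 16.5 to 22.6 against 32.5 to 42.0, and red blood cell markers to at most 0.567 in any library. Granulosa markers that were called were highest in deletion library 1, at a median of 2.19 times the mean of libraries 2 and 3, whereas the 1417 members that rose at least 2-fold had a median ratio of 1.06. Without deletion library 1, 1343 members rose and 413 fell at least 2-fold. The granulosa markers Fshr, Lhcgr, Star, Has2 and Wt1 did not pass the FPKM filter. The part of such cells in the changes of other genes was not tested.

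After Cxxc1 itself, Pabpn1l had the largest fall. It encodes an oocyte poly(A)-binding protein that takes part in the clearance of maternal mRNA in mouse. It was measured at 253, 251 and 254 FPKM in wild-type oocytes and 14.4, 13.5 and 12.5 in deletion oocytes, and no library of one group came near the other (log2 fold change -4.13 ± 0.19 SE, adjusted p = 1.89e-11, ERCC-scaled -5.54). Insm1, a zinc-finger repressor of neuroendocrine cells, was at 31.3, 27.5 and 34.2 FPKM against 2.84, 2.49 and 2.83 after deletion (log2 fold change -3.10, ERCC-scaled -4.07). Arid5b, a DNA-binding partner of a histone demethylase, read 36.2, 36.5 and 37.7 FPKM in the wild-type libraries and 4.09, 6.62 and 4.27 in the deletion libraries (log2 fold change -2.68, ERCC-scaled -3.84). Cd7, known as a T cell surface protein, was at 85.4, 98.4 and 93.8 FPKM against 15.0, 12.5 and 14.6 after deletion (log2 fold change -2.64, ERCC-scaled -4.05). The groups stood apart in each of these genes, but the 20 largest falls and the 20 largest rises were taken only from genes without overlap, so that gap was set by the choice. Other genes of the 20 largest falls were of many kinds. Enzymes among them were the glycosyltransferase Extl1, which fell from 12.7 ± 0.642 to 2.08 ± 0.753 FPKM, the carboxypeptidase Cpa1 (from 157 ± 6.74 to 35.1 ± 0.914 FPKM), the receptor phosphatase Ptpre (from 13.0 ± 0.0284 to 2.18 ± 0.160 FPKM) and the kinase Taok3 (from 26.4 ± 1.49 to 6.44 ± 0.593 FPKM). The cationic amino acid transporter Slc7a2 fell from 22.7 ± 0.738 to 4.77 ± 0.559 FPKM, and the adhesion scaffold Nedd9 fell from 9.17 ± 0.366 to 1.64 ± 0.283 FPKM. The circadian gene Per3 fell from 21.3 ± 0.983 to 4.71 ± 0.187 FPKM, the splicing regulator Rbm4 from 12.7 ± 0.843 to 2.75 ± 0.497 FPKM, and the zinc-finger genes Zfp616 and Zfp646 from 15.8 ± 1.48 to 2.78 ± 0.576 FPKM and from 8.90 ± 0.495 to 1.71 ± 0.105 FPKM. Their log2 fold changes lay between -2.19 and -1.87, and these values, like all below in this form, are means ± SD with n = 3 in each group.

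Stambpl1, a deubiquitinase gene of the endosomal pathway, had the largest rise. It had 1.01, 0.708 and 1.38 FPKM in wild-type oocytes and 90.5, 78.0 and 59.1 with Gdf9-Cre, with no overlap (log2 fold change 5.23 ± 0.27 SE, adjusted p = 6.22e-11, ERCC-scaled 3.68). Slc16a6, a transporter of the monocarboxylate family, was at 0.608, 0.665 and 0.525 FPKM against 30.2, 31.6 and 25.6 after deletion (log2 fold change 4.23, ERCC-scaled 2.73). Plac1, an X-linked gene known from placenta, was at 0.974, 0.934 and 0.549 FPKM against 37.0, 34.0 and 26.1 after deletion (log2 fold change 4.19, ERCC-scaled 2.67). In these genes the wild-type libraries were near or under 1 FPKM and all deletion libraries were above 25. Sox3, an X-linked transcription factor gene of the gonads and brain, was measured at 0.0875, 0.0843 and 0.125 FPKM in wild-type oocytes and 18.4, 15.5 and 14.8 in deletion oocytes (log2 fold change 3.97, ERCC-scaled 2.53). Il23a, a subunit of the cytokine interleukin 23, was at 1.58, 1.38 and 3.97 FPKM against 40.6, 39.1 and 35.4 after deletion (log2 fold change 3.65, ERCC-scaled 2.13). Krt8, the keratin of simple epithelia and early embryos, was at 1.43, 2.16 and 2.84 FPKM against 41.2, 39.6 and 25.3 after deletion (log2 fold change 3.52, ERCC-scaled 2.01). The 10 ovarian surface epithelium markers in the table, Krt8 among them, summed to 54.7 to 56.6 FPKM in wild-type libraries and 89.6 to 106 in deletion libraries. Most of that gain was the rise of Krt8 itself. Markers at 1 FPKM or more numbered 3 in each wild-type library and 4, 4 and 5 in the deletion libraries. The part of surface epithelium in these rises was not tested.

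Id1 and Id3 encode partners that block basic helix-loop-helix factors, and both were among the 20 largest rises. Id1 read 0, 0.897 and 1.64 FPKM in the wild-type libraries and 15.6, 20.1 and 18.1 in the deletion libraries, and Id3 was at 6.60, 5.45 and 3.67 FPKM against 61.2, 59.1 and 45.3 after deletion. Both were higher in every deletion library (log2 fold changes 3.46 for Id1 and 3.19 for Id3, ERCC-scaled 2.05 and 1.64), and the pseudogene Bambi-ps1 rose from 0.831 ± 0.284 to 22.9 ± 4.87 FPKM. The selenium carrier Sepp1 rose from 1.15 ± 0.279 to 21.7 ± 3.49 FPKM, the galectin Lgals1 from 0.165 ± 0.150 to 10.4 ± 0.601 FPKM, the small protein genes Fam174b and Wbp5 from 1.34 ± 0.478 to 22.2 ± 1.16 FPKM and from 1.91 ± 0.129 to 25.8 ± 6.47 FPKM, and the homeobox gene Hoxd13 from 0.805 ± 0.311 to 16.1 ± 1.09 FPKM. Rps27rt, a ribosomal protein gene copy, had 92.7, 0.164 and 67.6 FPKM in wild-type oocytes and 224, 213 and 158 with Gdf9-Cre. Its large fold change rests on wild-type library 2. Without that library the log2 fold change was 1.30 and the call was lost (adjusted p = 0.136). With all 6 libraries kept and the other libraries left out of the fit, the call was lost too (adjusted p = 0.144).

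**Figure D2:**
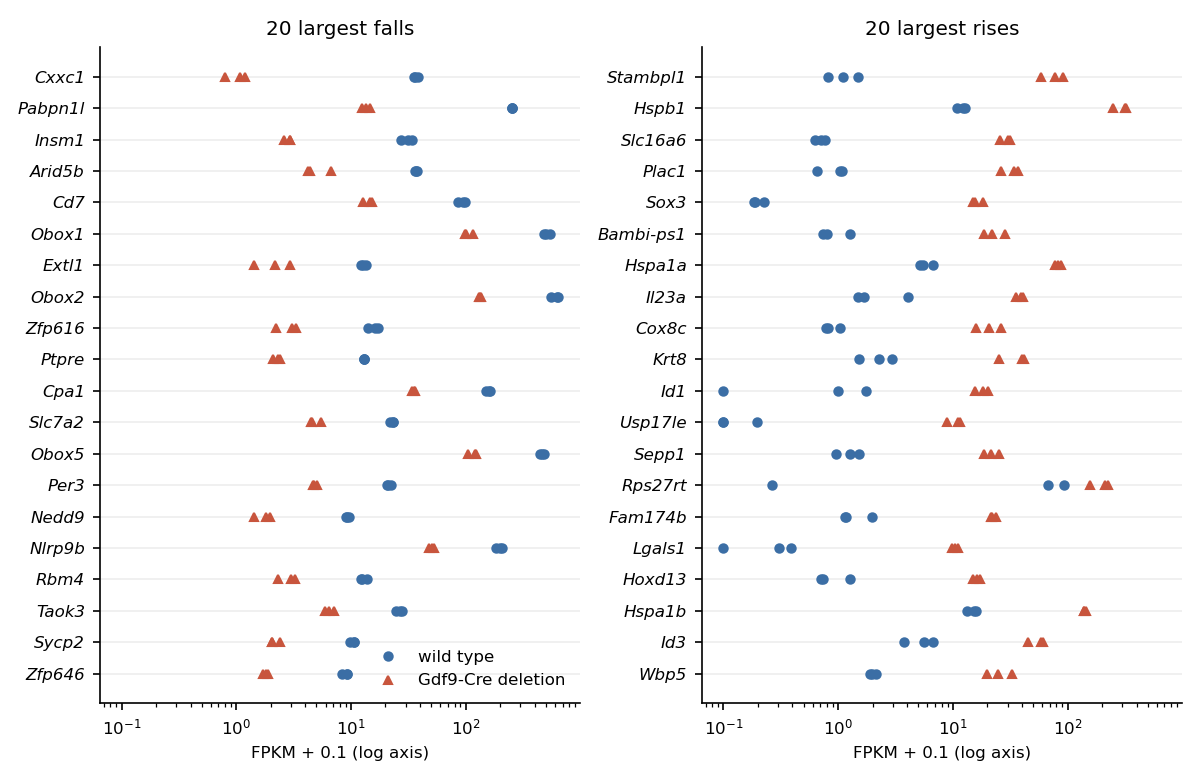
FPKM plus 0.1 on a log axis in each library for the 20 called genes with the largest fall (left) and the 20 with the largest rise (right), circles for wild type and triangles for Gdf9-Cre deletion, genes ordered by size of change. Only genes whose groups did not overlap were eligible, so the gap between the groups is set by that choice, and Rps27rt has 1 wild-type library far below the other two.

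By amount, the largest gains and losses were in other genes. Ubb, a polyubiquitin gene, rose from 1753 ± 139 to 2894 ± 149 FPKM, and Ldhb, the lactate dehydrogenase subunit of oocytes, rose from 2204 ± 63.8 to 3278 ± 248 FPKM. Ubb lost the call with median-of-ratios scaling (adjusted p = 0.0794). Ldhb lost the call with quantile normalization (adjusted p = 0.0998). Dppa3, the maternal factor Stella that shields the maternal genome from demethylation, rose from 708 ± 25.9 to 1202 ± 30.8 FPKM, and Pttg1, the separase inhibitor securin, rose from 696 ± 9.13 to 1079.7 ± 117 FPKM. Tmsb10, which binds actin monomers, rose from 598 ± 80.7 to 1028 ± 140.0 FPKM, Rpl41 from 421 ± 29.0 to 1009 ± 116 FPKM, and the cyclin-dependent kinase partner Cks2 from 200.1 ± 18.9 to 517 ± 46.8 FPKM. Gtf2b, the general transcription factor TFIIB, rose from 252 ± 5.73 to 760.4 ± 37.1 FPKM and Dppa5a, a gene of pluripotent cells, from 190.4 ± 21.5 to 615 ± 71.2 FPKM. On the ERCC scale none of these gains was called higher: the log2 fold changes there were -0.87 for Ubb, -1.03 for Ldhb, -0.83 for Dppa3, -0.01 for Gtf2b and 0.09 for Dppa5a. The imprint regulator Zfp57 rose from 1158 ± 23.9 to 1559.6 ± 108 FPKM with an adjusted p of 0.0449, and lost the call under both centring scalings and without any 1 of the 6 libraries. Among the losses by amount, Gdf9, the growth factor whose promoter drives the Cre here, fell from 2469 ± 5.80 to 1626 ± 52.8 FPKM, the nuclear chaperone Npm2 from 886 ± 18.5 to 535 ± 20.3 FPKM, the membrane linker Rdx from 619 ± 17.4 to 265 ± 7.13 FPKM and the tripartite motif gene Trim61 from 723 ± 2.32 to 248 ± 26.0 FPKM.

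The SETD1 complex as a list had 4 members called higher and 3 lower of 10, Cxxc1 included (median log2 fold change 0.01, -0.23 with median-of-ratios scaling, -0.18 with quantile normalization and -1.52 ERCC-scaled). Ash2l, a core subunit shared by all H3K4 methyltransferases of this kind, was measured at 18.4, 17.6 and 18.0 FPKM in wild-type oocytes and 51.8, 55.2 and 52.2 in deletion oocytes. All 3 deletion libraries were above wild type (log2 fold change 1.51 ± 0.09 SE, adjusted p = 2.71e-10), but the ERCC-scaled change was -0.04 and was not called. Setd1b, a catalytic subunit, rose from 16.5 ± 0.129 to 28.0 ± 0.829 FPKM, and Dpy30, another shared subunit, rose from 87.1 ± 4.89 to 127 ± 11.96 FPKM, a call that Dpy30 lost under median-of-ratios scaling (adjusted p = 0.122). Of 11 members among the KMT2 methyltransferases and partners, 2 rose and 3 fell (median 0.17, -0.07 and -0.01 under the centring scalings, ERCC-scaled -1.38, 2 and 5 with median-of-ratios scaling, 2 and 5 with quantile normalization). Pagr1a, a partner of KMT2C and KMT2D, rose from 15.0 ± 0.674 to 35.1 ± 1.28 FPKM and Smyd3, a SET-domain methyltransferase, rose from 10.7 ± 0.987 to 20.02 ± 2.93 FPKM. Psip1, a chromatin tether, fell from 83.4 ± 2.26 to 46.7 ± 2.87 FPKM and Kdm6a, the H3K27 demethylase of these complexes, fell from 29.7 ± 1.81 to 17.2 ± 0.253 FPKM.

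H3K4 demethylases had 3 members called higher and 4 lower of 9 (median -0.09, ERCC-scaled -1.60, 1 and 4 with median-of-ratios scaling, 0 and 4 with quantile normalization, 1 and 4 without deletion library 1). Kdm1b, which removes H3K4 methylation in growing mouse oocytes before DNA methylation is laid down there, fell from 77.2 ± 8.48 to 54.5 ± 5.201 FPKM, and Kdm5c fell from 6.57 ± 0.471 to 3.73 ± 0.142 FPKM. Kdm5a and Kdm5b rose from 0.495 ± 0.0651 to 1.08 ± 0.125 FPKM and from 0.780 ± 0.239 to 1.98 ± 0.683 FPKM, at levels near 1 FPKM, and neither was called on the ERCC scale. Kdm5b lost the call with quantile normalization and without deletion library 1 (adjusted p up to 0.225). Kdm5a lost the call with median-of-ratios scaling, with quantile normalization and without wild-type library 1 or 3 or deletion library 1 (adjusted p up to 0.844). The DNA methylation list had 5 higher and 5 lower of 16 (median -0.01, ERCC-scaled -1.34, 3 and 7 with median-of-ratios scaling, 3 and 8 with quantile normalization, 3 and 5 without wild-type library 1, 3 and 5 without wild-type library 2). Dnmt1, the maintenance methyltransferase, read 987, 1012 and 1030.3 FPKM in the wild-type libraries and 346, 375 and 429.6 in the deletion libraries, with a wide gap between the groups (log2 fold change -1.40 ± 0.26 SE, adjusted p = 0.000188, ERCC-scaled -2.99). Tet3, the oxidase that acts on methylcytosine in the zygote, was at 70.4, 67.7 and 69.2 FPKM against 18.7, 21.9 and 18.7 after deletion (log2 fold change -1.76, ERCC-scaled -3.22). Uhrf2 and Mbd2, which bind modified cytosine, rose from 1.06 ± 0.487 to 3.29 ± 0.764 FPKM and from 5.74 ± 0.548 to 11.3 ± 1.63 FPKM.

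Repressive chromatin genes changed in either direction. Polycomb group genes had 10 called higher and 5 lower of 28, beside 37.2% and 17.3% for all members (median 0.12, -0.10 and -0.13 under the centring scalings, ERCC-scaled -1.34, 4 and 9 with median-of-ratios scaling, 5 and 10 with quantile normalization). Pcgf1, a ring-finger subunit of a variant Polycomb complex, fell from 447 ± 7.07 to 212 ± 2.45 FPKM, Jarid2 fell from 32.6 ± 1.27 to 17.1 ± 0.888 FPKM, and the chromodomain genes Cbx7 and Cbx8 rose from 1.62 ± 0.163 to 6.52 ± 0.219 FPKM and from 1.37 ± 0.971 to 3.32 ± 0.778 FPKM. Cbx8 lost the call with median-of-ratios scaling, with quantile normalization, with a pseudocount of 0.1, with the other libraries left out of the fit and without wild-type library 1 or deletion library 2 or 3 (adjusted p up to 0.244, log2 fold change 0.56 without wild-type library 1 against 0.95). For H3K9 methylation and heterochromatin 2 rose and 2 fell of 15 (median -0.04, ERCC-scaled -1.38, 1 and 5 with median-of-ratios scaling, 1 and 6 with quantile normalization). Ehmt1 and Setdb1, both H3K9 methyltransferases, fell from 13.5 ± 0.833 to 7.68 ± 0.660 FPKM and from 88.7 ± 0.820 to 68.4 ± 7.76 FPKM, and Ehmt2 and the heterochromatin protein gene Cbx5 rose from 2.33 ± 0.533 to 3.99 ± 0.620 FPKM and from 3.64 ± 0.549 to 6.81 ± 0.134 FPKM. Ehmt2 lost the call with median-of-ratios scaling, with quantile normalization, without the FPKM filter and without wild-type library 1 or 3 or deletion library 2 or 3 (adjusted p up to 0.308). Setdb1 lost the call with a pseudocount of 0.1, without the FPKM filter and without wild-type library 1, 2 or 3 or deletion library 1 or 2 (adjusted p up to 0.174). Deacetylase and NuRD genes had 9 higher and 4 lower of 19 (median 0.31, ERCC-scaled -1.05, 7 and 7 with median-of-ratios scaling). Hdac1 rose from 5.93 ± 0.975 to 13.1 ± 2.63 FPKM, Hdac3 from 7.91 ± 0.990 to 16.1 ± 1.93 FPKM, Mta2 from 1.46 ± 0.292 to 4.09 ± 0.367 FPKM and the corepressor Sin3b from 39.9 ± 4.44 to 76.8 ± 9.03 FPKM.

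Acetyltransferase and remodelling genes moved in both directions. The acetyltransferase Kat6b fell from 24.8 ± 1.63 to 9.65 ± 0.730 FPKM, Ep300 fell from 14.7 ± 0.261 to 7.69 ± 0.655 FPKM, and Hat1 and Brd3, an acetyl-lysine reader, rose from 32.8 ± 2.64 to 59.5 ± 3.42 FPKM and from 5.33 ± 0.283 to 9.11 ± 0.710 FPKM, within a list of 4 higher and 4 lower of 15 (median -0.01, ERCC-scaled -1.46, 2 and 5 with median-of-ratios scaling). In the SWI/SNF list 11 rose and 3 fell of 18 (median 0.39, ERCC-scaled -1.15, 4 and 4 with median-of-ratios scaling, 6 and 4 with quantile normalization). Arid1a, a DNA-binding subunit, had 70.5, 68.2 and 75.2 FPKM in wild-type oocytes and 23.03, 26.7 and 25.7 with Gdf9-Cre, with no overlap (log2 fold change -1.47, ERCC-scaled -2.96), and Arid2 fell from 22.7 ± 0.557 to 12.2 ± 1.05 FPKM. Dpf2 and Smarcc2 rose from 5.30 ± 0.443 to 13.2 ± 0.812 FPKM and from 11.4 ± 0.204 to 19.3 ± 0.884 FPKM. Oocyte histone variants and chaperones had 8 called higher and 8 lower of 27 (median 0.19, -0.05 under median-of-ratios scaling, ERCC-scaled -1.31). The variants H2afz, H2afy and Hist1h2ba rose from 16.2 ± 1.48 to 54.8 ± 10.8 FPKM, from 6.76 ± 0.349 to 16.3 ± 1.63 FPKM and from 2.83 ± 0.762 to 9.47 ± 4.59 FPKM, and the chaperone Npm3 rose from 17.6 ± 1.47 to 47.8 ± 5.79 FPKM.

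Families of oocyte genes fell. Obox genes, homeobox genes that are expressed in mouse oocytes, lie side by side in the genome and share much sequence, so reads could be divided between copies and single values are uncertain, as they are for the Nlrp, Usp17l, Zscan4, histone and Hspa1 copies below. Of 5 members, 4 fell and 0 rose (median -1.99, ERCC-scaled -3.56). Obox1 was measured at 539.7, 501 and 484 FPKM in wild-type oocytes and 99.5, 115 and 99.6 in deletion oocytes. Obox2 read 642, 550.1 and 621 FPKM in the wild-type libraries and 136, 130.0 and 134 in the deletion libraries. Every deletion library was under every wild-type library in both genes (log2 fold changes -2.27 for Obox1 and -2.17 for Obox2, ERCC-scaled -3.84 and -3.75). Obox5 fell from 461 ± 20.9 to 116 ± 10.1 FPKM and Obox7 from 69.8 ± 3.96 to 29.6 ± 4.33 FPKM.

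Nlrp genes of the oocyte encode relatives of inflammasome proteins, several of which are needed by the early mouse embryo. Of 12 members, 9 fell and 0 rose (median -0.91, ERCC-scaled -2.47). Nlrp9b had 198, 207 and 185 FPKM in wild-type oocytes and 47.9, 50.8 and 53 with Gdf9-Cre, with the groups apart (log2 fold change -1.94, ERCC-scaled -3.48). Nlrp4b fell from 132 ± 5.71 to 39.5 ± 2.43 FPKM, Nlrp4e from 56.2 ± 1.17 to 17.3 ± 1.37 FPKM and Nlrp4f from 268 ± 7.11 to 105.2 ± 1.76 FPKM. In the oogenesin and Fbxw families, oocyte genes with leucine-rich repeats or F-boxes, 15 of 17 fell and 0 rose (median -0.88, ERCC-scaled -2.46). Oog3 was measured at 446, 437 and 435 FPKM in wild-type oocytes and 128, 128 and 134 in deletion oocytes, again without overlap (log2 fold change -1.75, ERCC-scaled -3.33). Fbxw21 fell from 358 ± 7.37 to 160.4 ± 10.3 FPKM, Fbxw15 from 418 ± 10.1 to 188 ± 8.13 FPKM, Fbxw20 from 145 ± 3.53 to 66.5 ± 1.91 FPKM and Fbxw24 from 661 ± 11.8 to 338 ± 5.78 FPKM. The share called lower was thus far above the 17.3% of all members in each of these families, while the subcortical maternal complex had 3 lower and 0 higher of 11 (median 0.05, -0.20 under median-of-ratios scaling, ERCC-scaled -1.55, 0 and 5 with median-of-ratios scaling, 2 and 3 without deletion library 3). The falls there were Nlrp4f, Nlrp2 (from 101.4 ± 5.51 to 44.9 ± 1.96 FPKM) and Khdc1b (from 816 ± 36.7 to 574 ± 5.06 FPKM).

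Secreted factors, the zona pellucida and sperm fusion genes had 10 called lower and 2 higher of 15 (median -0.52, ERCC-scaled -2.11, 0 and 10 with median-of-ratios scaling, 0 and 9 with quantile normalization, 0 and 10 without deletion library 2). Fgf8, which oocytes send to cumulus cells, read 32.3, 29.9 and 37.1 FPKM in the wild-type libraries and 13.2, 10.8 and 9.29 in the deletion libraries. Cd9, the tetraspanin that sperm fusion needs, was at 62.5, 67.3 and 55.0 FPKM against 27.8, 27.1 and 26.4 after deletion. Kit, the receptor through which follicle cells sustain oocyte growth, was at 106, 108 and 104 FPKM against 50.5, 54.2 and 54.5 after deletion. The groups did not overlap in any of these genes, and Oosp3 fell from 182 ± 6.33 to 99.1 ± 5.48 FPKM. Of the oocyte growth factors, Bmp15 fell from 978 ± 36.8 to 703 ± 63.1 FPKM and Oosp1 from 908 ± 37.7 to 634 ± 18.3 FPKM. Oocyte transcription factors did not share this direction, with 10 higher and 3 lower of 20 (median 0.35, ERCC-scaled -1.09, 7 and 5 with median-of-ratios scaling, 6 and 5 with quantile normalization). Sall4, a zinc-finger factor of germ cells, fell from 67.2 ± 2.16 to 19.205 ± 2.73 FPKM, and Sohlh2, a helix-loop-helix factor of early oocytes, and Gata4, a factor of follicle cells, rose from 4.10 ± 1.30 to 17.0 ± 1.27 FPKM and from 16.6 ± 1.14 to 41.5 ± 5.31 FPKM.

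mRNA storage and translational control had 10 members called lower and 8 higher of 29 (median -0.11, ERCC-scaled -1.62, 5 and 14 with median-of-ratios scaling). Beside Pabpn1l, Eif4e1b, the cap-binding protein of oocytes, had 854, 872 and 857 FPKM in wild-type oocytes and 415, 430.0 and 424 with Gdf9-Cre, lower in every library. Pabpc1, the common poly(A)-binding protein, rose from 14.0 ± 1.40 to 34.1 ± 0.897 FPKM, and Patl1, a decapping partner, rose from 13.0 ± 0.537 to 25.4 ± 0.963 FPKM. Deadenylation and decay genes had 9 higher and 8 lower of 33 (median 0.07, -0.18 and -0.12 under the centring scalings, ERCC-scaled -1.45, 2 and 11 with median-of-ratios scaling, 3 and 10 with quantile normalization, 5 and 7 without wild-type library 3). Zfp36l2, which recruits deadenylases to maternal mRNA, rose from 4.86 ± 0.395 to 17.3 ± 2.75 FPKM, the terminal uridylyltransferase Zcchc11 rose from 0.157 ± 0.115 to 1.07 ± 0.395 FPKM, and the decay factors Upf1 and Dcp1a fell from 48.5 ± 1.62 to 27.5 ± 3.95 FPKM and from 173 ± 5.53 to 99.6 ± 8.59 FPKM. Zcchc11 lost the call with quantile normalization (adjusted p = 0.0763). Small RNA pathway genes had 8 higher and 6 lower of 25 (median 0.06, -0.15 and -0.13 under the centring scalings, ERCC-scaled -1.24, 3 and 9 with median-of-ratios scaling, 3 and 8 with quantile normalization). Henmt1, which methylates piRNA ends, fell from 69.2 ± 2.76 to 22.9 ± 2.35 FPKM and the helicase Tdrd9 from 11.3 ± 0.941 to 2.50 ± 0.317 FPKM, while Mael and Ago1 rose from 31.9 ± 3.21 to 86.5 ± 11.6 FPKM and from 0.467 ± 0.122 to 2.93 ± 0.329 FPKM.

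In meiosis, for arrest and resumption 15 rose and 6 fell of 43 (median 0.19, -0.05 under median-of-ratios scaling, ERCC-scaled -1.34, 10 and 14 with median-of-ratios scaling, 13 and 13 with quantile normalization). These shares, 34.9% and 14.0%, were near those of all members, 37.2% and 17.3%. Mos, the kinase that holds the egg at metaphase, fell from 251 ± 5.10 to 130.3 ± 2.45 FPKM, Rps6ka1, a kinase of the same cascade, fell from 10.4 ± 1.16 to 4.78 ± 0.634 FPKM, and Cdc25c, a phosphatase that activates the cell division kinase, rose from 3.22 ± 0.700 to 12.4 ± 1.04 FPKM. Ppp2r2a, a phosphatase subunit, rose from 18.6 ± 0.676 to 37.2 ± 1.84 FPKM. Spindle and checkpoint genes had 9 higher and 5 lower of 31 (median 0.17, -0.06 under median-of-ratios scaling, ERCC-scaled -1.32, 1 and 11 with median-of-ratios scaling, 5 and 9 with quantile normalization). Fmn2, the formin that positions the meiotic spindle in mouse oocytes, was measured at 53.8, 56.1 and 54.9 FPKM in wild-type oocytes and 19.03, 17.4 and 20.4 in deletion oocytes, with no overlap (log2 fold change -1.49, ERCC-scaled -2.95). Aurkc, the germ cell Aurora kinase, fell from 169 ± 9.18 to 94.6 ± 2.28 FPKM and the microtubule polymerase Ckap5 from 30.9 ± 0.270 to 19.08 ± 1.15 FPKM, and the spindle factor Tpx2 rose from 58.0 ± 2.77 to 103 ± 4.58 FPKM. Cohesin and chromosome axis genes had 8 higher and 4 lower of 23 (median 0.19, -0.00 under quantile normalization, ERCC-scaled -1.10, 4 and 6 with median-of-ratios scaling, 3 and 6 with quantile normalization). Their 34.8% and 17.4% were also near the shares of all members. The axis partners moved apart: Sycp2 was at 10.5, 10.6 and 9.67 FPKM against 1.94, 1.95 and 2.33 after deletion, and Sycp3 was at 6.96, 11.6 and 7.10 FPKM against 52.8, 49.9 and 50.2 after deletion. No library of one group reached the other in these genes (log2 fold changes -1.88 for Sycp2 and 2.48 for Sycp3, ERCC-scaled -2.74 and 0.93). The cohesin subunit Stag2 rose from 4.64 ± 0.395 to 10.6 ± 0.666 FPKM and Syce1 from 1.59 ± 0.450 to 4.17 ± 1.44 FPKM. Syce1 lost the call with quantile normalization (adjusted p = 0.0855).

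Heat-shock genes held some of the largest rises. Hspb1, a small chaperone of stressed cells, read 10.8, 12.2 and 12.6 FPKM in the wild-type libraries and 324, 319 and 247 in the deletion libraries. Hspa1a and Hspa1b are neighbouring copies of the inducible chaperone HSP70. Hspa1a was at 6.61, 5.07 and 5.37 FPKM against 78.2, 88.4 and 82.4 after deletion. Hspa1b was at 15.7, 13.1 and 15.2 FPKM against 140.1, 146 and 140.2 after deletion. All deletion libraries were above all wild-type libraries in these genes, and the calls were also made on the ERCC scale (log2 fold changes 4.52 for Hspb1, 3.66 for Hspa1a and 3.20 for Hspa1b, ERCC-scaled 2.94, 2.09 and 1.62). Over the list, 15 of 30 members rose and 3 fell (median 0.34, 12 and 5 with median-of-ratios scaling, 12 and 5 with quantile normalization), but the ERCC-scaled median was -1.01, with 6 called higher and 22 lower. Dnajb9, a chaperone of the endoplasmic reticulum, rose from 3.59 ± 0.509 to 15.3 ± 0.490 FPKM.

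The promoters of these genes are shown because heat-shock factors bind inverted GAA repeats. The windows run from 250 bases before to 50 bases after the annotated start and come from RefSeq on GRCm38.p6. They are chr5:135887669-135887968 on the plus strand, chr17:34972107-34972406 on the minus strand and chr17:34959189-34959488 on the minus strand. Each is written 5′ to 3′ along the gene, with matches to GAANNTTC in capitals.
Hspb1: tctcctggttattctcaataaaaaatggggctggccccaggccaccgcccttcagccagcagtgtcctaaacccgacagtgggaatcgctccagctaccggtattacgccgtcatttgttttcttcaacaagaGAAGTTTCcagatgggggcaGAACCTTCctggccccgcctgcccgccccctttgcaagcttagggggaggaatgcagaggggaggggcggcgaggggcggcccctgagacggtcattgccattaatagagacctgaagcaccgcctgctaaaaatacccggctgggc
Hspa1a: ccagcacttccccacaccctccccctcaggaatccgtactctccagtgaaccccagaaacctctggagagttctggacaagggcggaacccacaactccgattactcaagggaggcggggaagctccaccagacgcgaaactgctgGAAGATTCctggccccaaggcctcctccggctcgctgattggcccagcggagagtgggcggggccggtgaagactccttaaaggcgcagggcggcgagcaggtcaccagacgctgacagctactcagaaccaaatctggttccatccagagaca
Hspa1b: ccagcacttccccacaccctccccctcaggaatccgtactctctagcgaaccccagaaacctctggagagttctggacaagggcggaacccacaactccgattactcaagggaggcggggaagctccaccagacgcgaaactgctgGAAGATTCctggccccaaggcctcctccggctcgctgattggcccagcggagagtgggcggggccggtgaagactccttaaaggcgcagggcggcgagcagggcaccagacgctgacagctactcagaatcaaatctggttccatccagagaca
GAANNTTC reads the same on both strands. It was found in 2 places in Hspb1, with first bases at -117 and -97 from the gene start, and in 1 place in Hspa1a and in Hspa1b, with the first base at -104 in each. Of all 27025 genes with a window, 7.95% held the motif, and of the members with a window 5.87%. Among the heat-shock and chaperone members 26 had a window. The motif was present in 10, of which 6 were called higher, 1 lower and 3 not, and absent in 16, of which 9 were called higher.

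Genes of endoplasmic reticulum stress had 15 called higher and 5 lower of 29 (median 0.40, ERCC-scaled -1.03, 11 and 10 with median-of-ratios scaling, 12 and 9 with quantile normalization). Vldlr, a lipoprotein receptor, had 0.574, 0.534 and 0.573 FPKM in wild-type oocytes and 8.90, 9.22 and 8.13 with Gdf9-Cre. The chaperone partner Sdf2l1 rose from 20.5 ± 0.162 to 70.7 ± 6.67 FPKM, asparagine synthetase Asns from 1.28 ± 0.160 to 6.68 ± 1.91 FPKM and the transcription factor Xbp1 from 0.286 ± 0.0491 to 2.41 ± 0.399 FPKM. Xbp1 lost the call with median-of-ratios scaling, with quantile normalization and without wild-type library 3 or deletion library 1 (adjusted p up to 0.16). Targets of p53 had 15 higher and 3 lower of 27 (median 0.55, ERCC-scaled -0.77, 13 and 5 with quantile normalization). The kinase Plk3 rose from 1.63 ± 0.384 to 13.6 ± 2.05 FPKM, the stress sensor Sesn1 from 0.569 ± 0.203 to 3.95 ± 0.461 FPKM and the death factor Pmaip1 from 0.138 ± 0.126 to 2.59 ± 0.580 FPKM, all of which were also called higher on the ERCC scale. Mdm4, an inhibitor of p53, was measured at 247, 244 and 237 FPKM in wild-type oocytes and 75.1, 79.4 and 78.3 in deletion oocytes, with no overlap (log2 fold change -1.63, ERCC-scaled -3.20).

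DNA damage response genes had 10 called lower and 8 higher of 35 (median 0.00 as deposited, -0.23 and -0.18 under the centring scalings, ERCC-scaled -1.49, 3 and 15 with median-of-ratios scaling, 5 and 14 with quantile normalization). Trp53bp1, which marks double-strand breaks, read 25.4, 23.05 and 23.7 FPKM in the wild-type libraries and 5.37, 6.19 and 6.71 in the deletion libraries, with no overlap (log2 fold change -1.83, ERCC-scaled -3.05). Trp73, a relative of p53, fell from 11.1 ± 0.886 to 4.45 ± 1.06 FPKM, the repair adaptor Palb2 from 9.71 ± 1.34 to 3.93 ± 0.362 FPKM, and Trp53 itself rose from 18.5 ± 1.73 to 39.0 ± 1.16 FPKM. Apoptosis genes had 11 higher and 5 lower of 25 (median 0.26, ERCC-scaled -1.003, 10 and 2 without wild-type library 2, 11 and 3 without deletion library 1, 10 and 3 without deletion library 2, 10 and 3 without deletion library 3), with Bok and Diablo rising from 0.545 ± 0.145 to 3.79 ± 1.43 FPKM and from 9.83 ± 1.43 to 26.7 ± 2.60 FPKM.

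Metallothionein and antioxidant genes had 16 called higher and 1 lower of 30 (median 0.44, ERCC-scaled -0.96, 12 and 4 with median-of-ratios scaling, 11 and 4 with quantile normalization). Gpx1, a glutathione peroxidase, had 7.42, 4.42 and 4.37 FPKM in wild-type oocytes and 61.2, 61.5 and 42.6 with Gdf9-Cre. The metal-binding gene Mt2 was at 0.530, 0 and 0 FPKM against 4.52, 7.33 and 9.85 after deletion, Mt1 rose from 1.21 ± 0.567 to 9.05 ± 3.28 FPKM, and heme oxygenase Hmox1 rose from 1.06 ± 0.377 to 11.5 ± 3.97 FPKM. These 4 genes were called higher on the ERCC scale as well. Immediate early and signalling genes had 7 higher and 3 lower of 16 (median 0.62, ERCC-scaled -0.43, 5 and 5 with quantile normalization). Only 16 of the 27 listed passed the FPKM filter, and genes that pass it through the deletion libraries alone had to be higher there. Dusp6, a phosphatase that is induced by and restrains ERK, was measured at 0.187, 0.300 and 0.536 FPKM in wild-type oocytes and 8.34, 11.1 and 10.3 in deletion oocytes, far apart. Its relative Dusp4 rose from 0.223 ± 0.0844 to 2.00 ± 0.281 FPKM, and the early factors Ier2 and Klf6 rose from 0.801 ± 0.200 to 4.26 ± 1.02 FPKM and from 0.446 ± 0.116 to 2.97 ± 0.641 FPKM. Dusp4 lost the call with quantile normalization (adjusted p = 0.1). Autophagy genes had 15 higher and 1 lower of 33 (median 0.26, ERCC-scaled -1.03, 10 and 3 with median-of-ratios scaling, 12 and 4 with quantile normalization). Gabarapl1, which coats autophagosomes, rose from 0.688 ± 0.222 to 7.01 ± 1.99 FPKM, its partner Map1lc3b from 17.5 ± 2.30 to 40.3 ± 2.52 FPKM, the cargo receptor Sqstm1 from 14.3 ± 1.37 to 57.1 ± 7.58 FPKM and Wipi1 from 4.86 ± 0.729 to 11.3 ± 1.22 FPKM.

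Genes of mitochondrial respiration rose on the deposited scale, though not on the ERCC scale. For complexes II to V 36 of 46 members rose and 0 fell, against 37.2% higher among all members, with a median of 0.78 (23 and 1 with median-of-ratios scaling). For complex I 21 of 37 rose and 0 fell, with a median of 0.71. Both directions turned on the ERCC scale, where the medians were -0.81 and -0.84. Cox8c, a cytochrome oxidase isoform known from testis, read 0.718, 0.676 and 0.946 FPKM in the wild-type libraries and 15.7, 26.0 and 20.4 in the deletion libraries, higher in every deletion library on either scale (log2 fold change 3.58, ERCC-scaled 2.13). The muscle isoform Cox7a1 was listed at 0 in all 3 wild-type libraries and was at 3.86, 3.23 and 1.47 FPKM after deletion, the lung isoform Cox4i2 rose from 2.43 ± 1.40 to 7.30 ± 0.822 FPKM, and the ATP synthase subunit Atp5g3 rose from 24.5 ± 4.68 to 65.7 ± 8.62 FPKM. Of complex I, Ndufb8 rose from 34.5 ± 6.90 to 101.3 ± 11.6 FPKM, Ndufs8 from 15.8 ± 0.749 to 35.1 ± 3.59 FPKM, Ndufa4 from 95.8 ± 4.21 to 190.1 ± 13.0 FPKM and Ndufa3 from 21.6 ± 11.4 to 55.9 ± 8.27 FPKM, a call that Ndufa3 lost without wild-type library 2 (adjusted p = 0.0679).

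Glycolysis and pyruvate entry had 16 called higher and 0 lower of 25 (median 0.66, ERCC-scaled -0.84). Ldha, the lactate dehydrogenase subunit of glycolytic tissues, had 1.64, 1.23 and 1.90 FPKM in wild-type oocytes and 18.5, 10.7 and 6.68 with Gdf9-Cre. Gapdh rose from 40.9 ± 1.92 to 151 ± 24.1 FPKM and the pyruvate dehydrogenase kinase Pdk3 from 15.6 ± 1.60 to 55.5 ± 3.94 FPKM. Citric acid cycle genes had 8 higher and 0 lower of 20 (median 0.34, ERCC-scaled -1.15, 3 and 0 with median-of-ratios scaling, 5 and 0 with quantile normalization). The 40.0% higher was near the 37.2% of all members. Mdh1 rose from 26.1 ± 1.67 to 65.8 ± 2.88 FPKM, Idh2 from 0.444 ± 0.291 to 2.93 ± 1.61 FPKM, Sdhb from 28.0 ± 0.846 to 43.0 ± 3.33 FPKM and Idh3a from 33.4 ± 2.67 to 49.96 ± 1.45 FPKM. Idh2 lost the call with quantile normalization and without wild-type library 3 or deletion library 1 or 3 (adjusted p up to 0.13). Idh3a lost the call with median-of-ratios scaling (adjusted p = 0.106). Mitochondrial protein import had 12 higher and 1 lower of 28 (median 0.55, ERCC-scaled -0.95, 8 and 3 with median-of-ratios scaling). The import receptor Tomm20 rose from 1.62 ± 0.209 to 7.22 ± 1.15 FPKM, and Tomm5, Chchd4 and Timm17b rose from 0.463 ± 0.0949 to 2.68 ± 1.47 FPKM, from 0.299 ± 0.175 to 1.92 ± 0.570 FPKM and from 7.77 ± 0.712 to 16.3 ± 3.54 FPKM. Tomm5 lost the call with quantile normalization and without deletion library 3 (adjusted p up to 0.149). Chchd4 lost the call with quantile normalization (adjusted p = 0.0597).

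Lipid genes gave 11 higher and 3 lower of 22 (median 0.49, ERCC-scaled -0.91, 9 and 6 with median-of-ratios scaling, 9 and 7 with quantile normalization). Fabp5, a fatty acid carrier, rose from 64.5 ± 3.18 to 182 ± 19.3 FPKM, the desaturase Scd2 from 0.821 ± 0.197 to 6.54 ± 1.93 FPKM, and Acadl and Acaca, enzymes of fatty acid breakdown and synthesis, from 3.56 ± 0.268 to 8.24 ± 0.638 FPKM and from 1.60 ± 0.113 to 4.14 ± 0.193 FPKM. Scd2 lost the call with quantile normalization (adjusted p = 0.051). Cholesterol synthesis had 7 higher and 4 lower of 22 (median 0.16, -0.06 and -0.07 under the centring scalings, ERCC-scaled -1.07, 3 and 5 with median-of-ratios scaling, 7 and 2 without wild-type library 1, 7 and 1 without wild-type library 3, 7 and 1 without deletion library 1, 7 and 2 without deletion library 2). Sc5d rose from 20.6 ± 0.689 to 52.4 ± 4.19 FPKM, Ebp from 0.667 ± 0.345 to 3.04 ± 0.471 FPKM and Pmvk from 1.28 ± 0.443 to 3.99 ± 0.449 FPKM, and Tm7sf2 fell from 3.45 ± 1.05 to 1.55 ± 0.288 FPKM. Pmvk lost the call with median-of-ratios scaling, with quantile normalization, with a pseudocount of 0.1 and without wild-type library 2 (adjusted p up to 0.177). Tm7sf2 lost the call with a pseudocount of 0.1 and without wild-type library 2 or 3 or deletion library 1 (adjusted p up to 0.263). Solute carriers of amino acids and ions had 7 lower and 4 higher of 18 (median -0.10, ERCC-scaled -1.50, 2 and 9 with quantile normalization). The taurine transporter Slc6a6 fell from 14.6 ± 1.04 to 4.79 ± 0.191 FPKM and the bicarbonate carrier Slc4a7 from 5.01 ± 0.330 to 1.51 ± 0.279 FPKM, and Slc7a5, a large neutral amino acid transporter, rose from 27.7 ± 1.06 to 65.5 ± 5.50 FPKM.

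Proteasome genes had 32 called higher and 2 lower of 45 (median 0.52, ERCC-scaled -1.04, 13 and 3 with median-of-ratios scaling, 19 and 3 with quantile normalization). Psmd14, the deubiquitinase of the lid, rose from 15.4 ± 0.332 to 41.1 ± 5.51 FPKM, the catalytic subunit Psmb5 from 36.3 ± 2.80 to 83.0 ± 8.33 FPKM, the assembly factor Psmg4 from 27.7 ± 3.03 to 63.3 ± 6.17 FPKM and the activator Psme2 from 8.73 ± 1.81 to 21.1 ± 1.86 FPKM. Psme2 lost the call with a pseudocount of 0.1 and without wild-type library 1 (adjusted p up to 0.09). In the chaperonin and prefoldin list 7 rose and 3 fell of 14 (median 0.38, ERCC-scaled -1.20, 4 and 3 with median-of-ratios scaling). Members of 1 complex moved apart there: the prefoldin genes Pfdn4 and Vbp1 fell from 228 ± 8.15 to 95.8 ± 6.44 FPKM and from 41.1 ± 4.35 to 16.6 ± 1.35 FPKM, while Pfdn5 rose from 91.9 ± 3.33 to 175 ± 15.9 FPKM, as did the chaperonin subunit Cct6a (from 3.81 ± 1.04 to 10.9 ± 2.05 FPKM).

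Genes of the expression machinery were mixed. RNA polymerase II and general factors had 21 higher and 5 lower of 46 (median 0.28, ERCC-scaled -1.17, 13 and 12 with median-of-ratios scaling, 18 and 9 with quantile normalization), with Polr2h and Ccnh rising from 3.75 ± 0.180 to 14.1 ± 0.262 FPKM and from 6.002 ± 0.601 to 13.3 ± 0.860 FPKM and the TFIID subunit Taf4a falling from 31.7 ± 0.532 to 15.5 ± 2.69 FPKM. Spliceosome genes had 20 higher and 6 lower of 45 (median 0.34, ERCC-scaled -1.22, 8 and 8 with median-of-ratios scaling, 12 and 9 with quantile normalization), with Snrpb rising from 8.83 ± 0.657 to 37.2 ± 4.73 FPKM, Sf3b6 from 3.66 ± 0.477 to 11.5 ± 1.07 FPKM, Lsm8 from 5.07 ± 1.62 to 11.2 ± 1.33 FPKM and Lsm4 from 33.5 ± 3.50 to 65.6 ± 6.77 FPKM. Translation initiation had 17 higher and 7 lower of 41 (median 0.28, ERCC-scaled -1.29, 7 and 8 with median-of-ratios scaling, 9 and 8 with quantile normalization, 15 and 4 without wild-type library 2, 11 and 6 without deletion library 1). Eif4ebp1, a repressor of cap-dependent translation, was measured at 1.31, 2.52 and 1.38 FPKM in wild-type oocytes and 12.1, 16.3 and 11.6 in deletion oocytes, and was called higher on the ERCC scale too. Eif4a2, an RNA helicase, fell from 51.6 ± 3.82 to 22.4 ± 2.13 FPKM, and Eif1a and Eif3i rose from 0.840 ± 0.392 to 3.46 ± 0.908 FPKM and from 41.5 ± 2.73 to 73.4 ± 2.38 FPKM. Eif1a lost the call with quantile normalization (adjusted p = 0.0509). For the aminoacyl-tRNA synthetases 9 rose and 2 fell of 22 (median 0.18, -0.06 under median-of-ratios scaling, ERCC-scaled -1.26, 4 and 4 with median-of-ratios scaling). Kars, Nars and Yars, for lysine, asparagine and tyrosine, rose from 41.6 ± 0.298 to 81.9 ± 4.47 FPKM, from 74.4 ± 1.57 to 124 ± 6.96 FPKM and from 0.245 ± 0.161 to 1.08 ± 0.0660 FPKM, and Iars fell from 91.6 ± 1.13 to 50.9 ± 4.70 FPKM. Yars lost the call with median-of-ratios scaling, with quantile normalization, without the FPKM filter and without wild-type library 1 or 3 or deletion library 1, 2 or 3 (adjusted p up to 0.376).

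Nucleolar genes of ribosome assembly had 18 higher and 7 lower of 39 (median 0.15, -0.09 and -0.02 under the centring scalings, ERCC-scaled -1.36, 11 and 14 with median-of-ratios scaling, 12 and 12 with quantile normalization). Nop10 rose from 22.1 ± 3.06 to 48.6 ± 2.56 FPKM, Nop16 from 0.384 ± 0.132 to 2.01 ± 0.516 FPKM, the methyltransferase Fbl from 25.1 ± 1.75 to 48.3 ± 3.08 FPKM and Bop1 from 13.9 ± 1.203 to 27.2 ± 1.94 FPKM. Nucleoporins and importins had 11 higher and 9 lower of 41 (median 0.19, -0.05 under median-of-ratios scaling, ERCC-scaled -1.32, 4 and 14 with median-of-ratios scaling, 6 and 14 with quantile normalization, 7 and 6 without wild-type library 3, 7 and 7 without deletion library 1). Ipo8 fell from 85.6 ± 3.02 to 31.2 ± 3.85 FPKM and Nup214 from 151 ± 4.34 to 75.8 ± 9.56 FPKM, and Ipo7 and Kpna1 rose from 4.72 ± 0.478 to 12.1 ± 0.167 FPKM and from 0.287 ± 0.185 to 1.46 ± 0.383 FPKM. Cell cycle genes had 19 higher and 4 lower of 40 (median 0.36, ERCC-scaled -1.06). The cyclins Ccnd2 and Ccnd3 rose from 2.18 ± 0.352 to 11.6 ± 2.74 FPKM and from 14.1 ± 1.15 to 44.4 ± 3.402 FPKM, and the kinase inhibitors Cdkn2a and Cdkn2c rose from 2.15 ± 1.78 to 11.6 ± 1.92 FPKM and from 5.74 ± 1.12 to 15.1 ± 0.274 FPKM.

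Genes known from the mouse 2-cell embryo rose in GV oocytes after deletion. Of 15 members, 14 rose and 1 fell (median 1.49), and the ERCC-scaled median stayed above 0 at 0.43, with 9 called higher and 2 lower. Only 15 of the 30 listed genes passed the FPKM filter, and genes that pass it through the deletion libraries alone had to be higher there, so this count is no measure of the list as a whole. Usp17le and Usp17lc are deubiquitinase genes of that stage. Usp17le was at 0.0972, 0 and 0 FPKM in wild-type libraries against 8.78, 11.4 and 11.1 after deletion. Usp17lc was listed at 0 in all 3 wild-type libraries and was at 6.56, 5.45 and 5.04 FPKM after deletion. Zscan4d, of the telomere-linked Zscan4 cluster, read 1.95, 2.16 and 1.82 FPKM in the wild-type libraries and 18.2, 14.5 and 8.79 in the deletion libraries. No wild-type library reached a deletion library in these genes. Hmgn5, a nucleosome-binding protein gene on the X chromosome, rose from 11.4 ± 1.79 to 87.5 ± 3.70 FPKM.

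**Figure D3:**
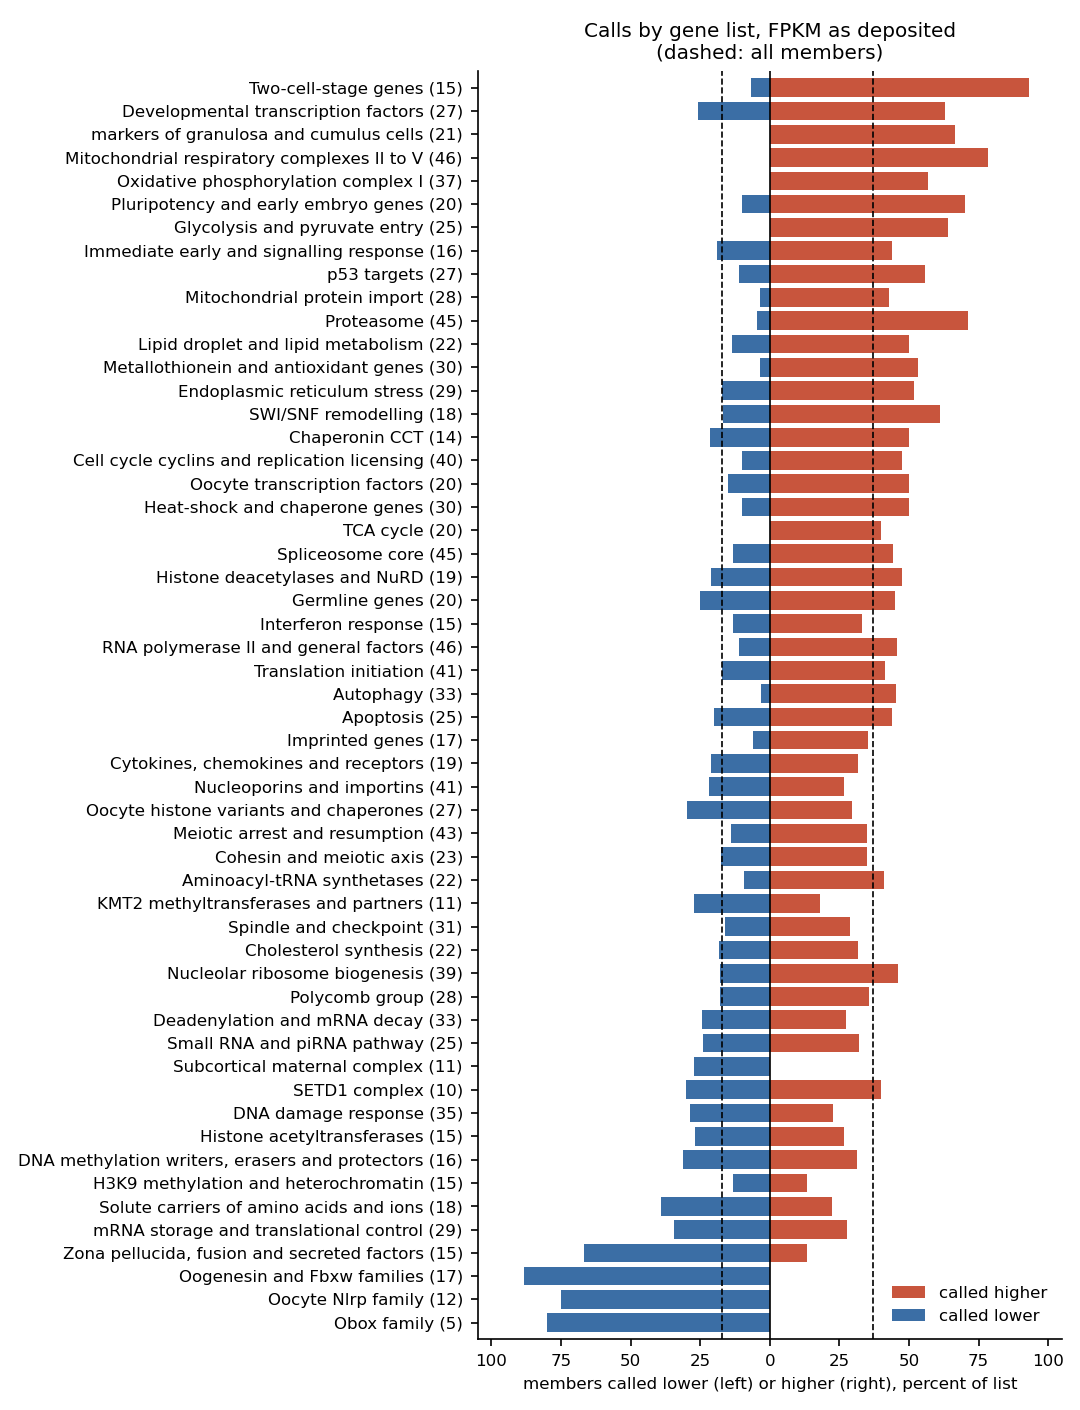
Percent of each gene list called lower (bars to the left) or higher (bars to the right), with the number of members in parentheses, lists ordered by median log2 fold change and dashed lines at the 17.3% and 37.2% of all members. Obox, Nlrp and oogenesin and Fbxw genes are at the bottom and 2-cell-stage genes at the top. On the ERCC scale the medians of 2 of the 54 lists shown, the 2-cell-stage genes and the granulosa markers, were above 0, against 44 as deposited. Lists under 10 members other than Obox are not shown, of which the theca and stroma markers (median 0.72, 4 members) and the leukocyte markers (0.47, 5 members) were also above 0 on that scale.

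Pluripotency and early embryo genes had 14 called higher and 2 lower of 20 (median 0.68, ERCC-scaled -0.53). Of the 31 genes listed 20 passed the FPKM filter, so this count has the same limit as that of the 2-cell list. The endoderm factor Gata6 rose from 0.314 ± 0.0473 to 3.28 ± 0.397 FPKM and the trophoblast factor Eomes from 0.0948 ± 0.0476 to 2.56 ± 0.502 FPKM. Developmental transcription factors had 17 higher and 7 lower of 27 (median 1.03, ERCC-scaled -0.17), and 27 of 61 listed passed the filter, with the same limit. Germline genes had 9 higher and 5 lower of 20 (median 0.30, ERCC-scaled -1.21), with Prdm1 rising from 10.4 ± 0.232 to 32.7 ± 2.05 FPKM. Imprinted genes had 6 higher and 1 lower of 17 (median 0.23, -0.05 under quantile normalization, ERCC-scaled -0.60), and 17 of 36 listed passed the filter, with the same limit. Phlda2, Nnat and Nap1l5 rose from 4.45 ± 1.29 to 18.8 ± 3.71 FPKM, from 0.473 ± 0.229 to 3.34 ± 2.08 FPKM and from 0.589 ± 0.214 to 3.17 ± 1.26 FPKM, and the clearance receptor Igf2r fell from 12.9 ± 0.652 to 3.58 ± 0.326 FPKM.

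A stricter description asked which genes were under 1 FPKM in every wild-type library and at 5 FPKM or more in every deletion library. There were 28, of which 1 was an unnamed gene model, 19 were also under 1 FPKM in every wild-type library of 3-week females, and 6 were likewise at 5 or more in every Zp3-Cre library. Beside Plac1, Slc16a6, Cox8c, Sox3, Usp17le and Dusp6, the 10 highest included Lgals1 and Stx11, a membrane fusion protein, which rose from 0.729 ± 0.147 to 12.7 ± 1.55 FPKM. Trap1a, an X-linked tumour antigen gene, was listed at 0 in all 3 wild-type libraries and was at 7.78, 10.9 and 10.2 after deletion. Camk1g, a calcium-dependent kinase, was measured at 0.504, 0.764 and 0.309 FPKM in wild-type oocytes and 6.21, 9.67 and 10.6 in deletion oocytes. In the opposite direction the rule found 1 gene, an unnamed gene model. With 2 in place of 5 FPKM the numbers were 226 and 25.

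Immune signalling lists held few members and changed in either direction. Of 43 cytokine, chemokine and receptor genes listed 19 passed the FPKM filter, and of 31 interferon response genes 15, with the limit given for the 2-cell list. Cytokines, chemokines and receptors had 6 higher and 4 lower of 19 (median 0.22, -0.02 under median-of-ratios scaling, ERCC-scaled -1.01), 31.6% and 21.1% beside 37.2% and 17.3% for all members. Beside Il23a, the chemokine Cxcl14 rose from 6.83 ± 0.0682 to 23.1 ± 1.09 FPKM, and Tgfb2 and the interleukin 1 receptor Il1r1 fell from 51.6 ± 0.801 to 18.4 ± 0.760 FPKM and from 13.2 ± 0.745 to 6.18 ± 1.01 FPKM. Interferon response genes had 5 higher and 2 lower of 15 (median 0.29, ERCC-scaled -0.69, 2 and 2 with median-of-ratios scaling, 2 and 3 with quantile normalization, 3 and 2 without wild-type library 1, 2 and 1 without wild-type library 2, 2 and 2 without deletion library 1, 3 and 1 without deletion library 3), with Bst2, a virus tether, rising from 16.5 ± 2.25 to 79.2 ± 12.6 FPKM, and Isg20, Oas1a and Irf3 from 2.71 ± 0.539 to 6.91 ± 2.88 FPKM, from 0.156 ± 0.105 to 1.28 ± 0.220 FPKM and from 4.57 ± 0.635 to 8.25 ± 1.26 FPKM. Isg20 lost the call with median-of-ratios scaling, with quantile normalization, with a pseudocount of 0.1, without the FPKM filter and without wild-type library 2 or 3 or deletion library 1 or 2 (adjusted p up to 0.148). Oas1a lost the call with median-of-ratios scaling, with quantile normalization and without wild-type library 1 or 2 or deletion library 1 or 3 (adjusted p up to 0.232). Irf3 lost the call with median-of-ratios scaling, with quantile normalization, with a pseudocount of 0.1, without the FPKM filter and without wild-type library 1 or 2 or deletion library 1 or 3 (adjusted p up to 0.167).

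Of the 32 granulosa and cumulus markers listed 21 passed the filter, with the limit given for the 2-cell list. They were called higher in 14 of 21 members and lower in 0 (median 0.94, ERCC-scaled 0.15, 5 and 0 with quantile normalization, 7 and 0 without deletion library 1). Inha, the inhibin alpha subunit, read 2.23, 3.79 and 4.01 FPKM in the wild-type libraries and 63.3, 33.6 and 24.0 in the deletion libraries. Amh, anti-Müllerian hormone, was at 2.92, 2.70 and 3.92 FPKM against 32.4, 13.5 and 16.1 after deletion. Gja1, the connexin of granulosa cells, was at 1.17, 2.09 and 0.957 FPKM against 18.5, 7.01 and 7.47 after deletion. In each of these genes deletion library 1 was the highest and no deletion library overlapped wild type. Hsd17b1, an estradiol-forming enzyme, rose from 0.602 ± 0.0307 to 6.22 ± 3.11 FPKM. Of the other cell types, the stromal proteoglycan Dcn rose from 0.529 ± 0.308 to 7.196 ± 0.982 FPKM and the hedgehog factor Gli1 from 0.523 ± 0.168 to 2.71 ± 0.502 FPKM. The leukocyte genes Cd68 and H2-Aa rose from 0.709 ± 0.681 to 6.18 ± 1.12 FPKM and from 1.59 ± 0.384 to 7.61 ± 1.45 FPKM, the epithelial stem cell receptor Lgr5 from 0.104 ± 0.00235 to 1.196 ± 0.175 FPKM, the endothelial genes Kdr and Tek from 1.12 ± 0.329 to 3.55 ± 0.285 FPKM and from 4.82 ± 0.174 to 10.1 ± 0.283 FPKM, and Flt1 from 1.65 ± 0.251 to 2.48 ± 0.470 FPKM, while Pecam1 fell from 24.1 ± 1.84 to 15.6 ± 0.723 FPKM. Flt1 lost the call with median-of-ratios scaling, with quantile normalization, with a pseudocount of 0.1, with a replicate block, without the FPKM filter and without wild-type library 1 or 3 or deletion library 1 or 2 (adjusted p up to 0.92). The sums of endothelial markers overlapped between the groups, at 29.9 to 35.0 FPKM in wild-type libraries and 32.4 to 33.1 in deletion libraries.

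The same gene was deleted with Zp3-Cre in oocytes of 3-week females, a model with its own wild-type libraries in which the Cre acts later and the females are younger, so driver and age cannot be told apart. Over all 11987 members, 2419 were called higher and 1514 lower with Zp3-Cre. Of the 1417 members that rose at least 2-fold with Gdf9-Cre, 850 (60.0%) were also called higher with Zp3-Cre, and of the 420 that fell at least 2-fold, 360 (85.7%) were also called lower. The medians of these members were 1.32 with Gdf9-Cre and 0.69 with Zp3-Cre for the rises, and -1.25 and -0.88 for the falls. Those members were chosen for their change with Gdf9-Cre, so the larger size there is in part set by the choice. The oocyte families that fell with Gdf9-Cre also fell with Zp3-Cre. There 4 of 5 Obox, 9 of 12 Nlrp and 17 of 17 oogenesin and Fbxw members were called lower. Summed ERCC entries were 571, 341 and 452 FPKM in 3-week wild type and 636, 889 and 800 with Zp3-Cre, a 1.70-fold larger share, against 3.05-fold with Gdf9-Cre. RGC-GFP was at 117, 89.7 and 114 FPKM in 3-month wild type and at 1711, 934 and 1292 in 3-week wild type. The mix of control RNAs thus differed between the ages. Any other difference in library preparation cannot be told apart from driver and age either. The entry RGC-CRE was listed at 0 in all 6 libraries of 3-month oocytes, Gdf9-Cre included, and was at 4.82, 5.92 and 2.03 FPKM in the Zp3-Cre libraries. The sequence behind that entry is not given in the sources used here.

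A test of the difference between the deletion effects called 427 members with a higher effect with Gdf9-Cre (3.56%) and 229 with a lower one (1.91%). The count moved widely with the fit, from 182 and 159 with a pseudocount of 0.1 to 2127 and 953 with library weights, and from 222 to 484 higher and 117 to 259 lower when single libraries were left out. Inha was at 19.13, 23.1 and 17.1 FPKM with Zp3-Cre and at 22.6, 15.0 and 17.8 in 3-week wild type, with no rise there, and its effects differed by 3.06 ± 0.72 (log2, SE, adjusted p = 0.0206). Sox3 was at 0.395, 0.142 and 5.61 FPKM with Zp3-Cre, so that 1 of those 3 libraries was high and the others were near wild type, and its effects differed by 2.87 ± 0.58 (adjusted p = 0.00918). Cox8c was already at 4.28, 8.42 and 4.78 FPKM in 3-week wild type and at 7.46, 14.7 and 14.1 with Zp3-Cre (difference 2.65, adjusted p = 0.000665). Sepp1, Usp17le, Elf3, the mitochondrial calcium channel subunit Ccdc109b, which rose from 8.71 ± 1.01 to 16.5 ± 2.79 FPKM, and the complex I relative Ndufa4l2, which rose from 1.38 ± 1.03 to 12.7 ± 1.504 FPKM, also had a higher effect with Gdf9-Cre. Elf3, an epithelial transcription factor, rose from 9.79 ± 1.21 to 33.4 ± 2.18 FPKM with Gdf9-Cre and was at 12.2, 14.7 and 5.98 FPKM with Zp3-Cre against 13.8, 13.8 and 12.4 in its wild type.

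In the opposite direction, Tceal8, an X-linked gene of the transcription elongation factor family, was at 11.5, 10.1 and 15.0 FPKM in wild-type females of 3 months and at 15.7, 14.9 and 10.9 with Gdf9-Cre, which was not called. In 3-week oocytes Tceal8 went from 1.96, 2.31 and 2.34 FPKM in wild type to 19.04, 18.9 and 43.4 with Zp3-Cre, with no overlap, and the effects differed by -2.86 ± 0.63 (adjusted p = 0.0154). Zfp109, a zinc-finger gene, fell from 15.7 ± 1.07 to 4.51 ± 0.293 FPKM with Gdf9-Cre and rose with Zp3-Cre, from 4.17, 3.10 and 3.20 in the 3 wild-type libraries to 9.26, 9.67 and 6.74 FPKM (difference -2.68, adjusted p = 1.46e-06). Its relative Zfp108 fell from 82.5 ± 3.46 to 47.6 ± 3.66 FPKM, and Ldlrad3, Ceacam20, Rbm44 and Cyp2c53-ps fell from 7.58 ± 0.169 to 2.60 ± 0.418 FPKM, from 17.6 ± 0.855 to 11.3 ± 0.419 FPKM, from 9.14 ± 1.13 to 5.02 ± 1.01 FPKM and from 7.71 ± 1.10 to 3.30 ± 0.831 FPKM. Rbm44 lost the call without wild-type library 2 or deletion library 3 (adjusted p up to 0.0562). Mt1 rose with either driver, by 2.17 with Gdf9-Cre and 3.64 with Zp3-Cre on the log2 scale, and its effects differed by -1.47 (adjusted p = 0.0127).

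**Figure D4:**
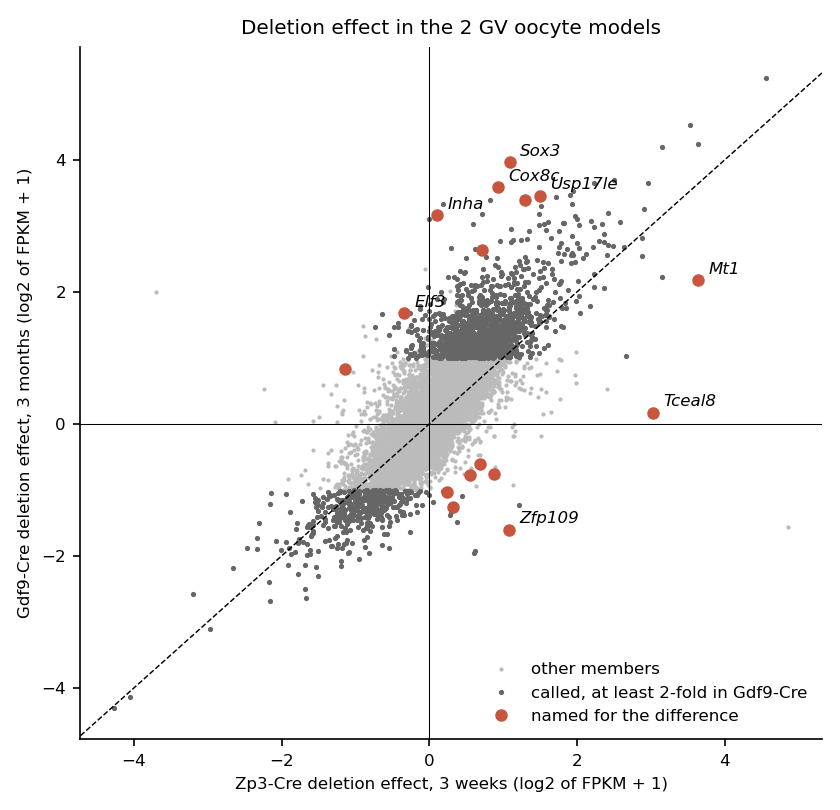
Log2 fold change of each member after Zp3-Cre deletion at 3 weeks (x axis) and after Gdf9-Cre deletion at 3 months (y axis), on FPKM + 1, with the line of equal effects dashed. Dark points changed at least 2-fold with Gdf9-Cre, and red points are the 16 genes named for a difference between the models, among them Sox3 and Inha above the line and Tceal8 and Zfp109 below it.

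Since CFP1 binds unmethylated CpG, promoter sequence was set beside the calls. A window was found for 9613 of the 11987 members (80.2%), and the ratio of observed to expected CpG in it had a median of 0.764. For members that were called lower (79.1% with a window), for those changed at least 2-fold (77.6%) and for members with a mean of 1 to under 10 FPKM (79.1%) the coverage was under 80%, so no summary is given for these sets. Among abundant members, with a mean of at least 100 FPKM over the 6 libraries, 48.2% of the 112 with a ratio under 0.4 were called lower and 16.1% higher. For the 344 with a ratio of at least 0.8 these shares were 13.1% and 45.1%. Members at 10 to under 100 FPKM showed the same order with a smaller gap, 32.3% lower among 387 under 0.4 and 18.0% lower among 2211 at 0.8 or more. The shares called higher there were 27.6% and 36.2%. For rises of at least 2-fold the order turned in this band, with 8.27% of the CpG-poor and 5.34% of the CpG-rich members. At 100 FPKM or more those shares were 1.79% and 4.07%. These are shares of genes in the same 6 libraries and carry no test. They rest on the deposited scale, and on the ERCC scale 9459 of the 11987 members were called lower.

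**Figure D5:**
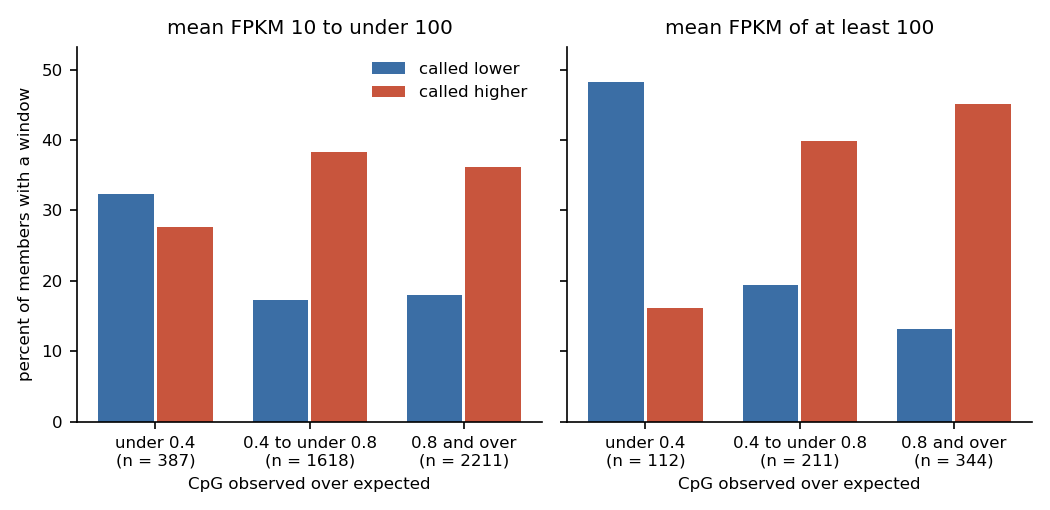
Percent of members called lower (blue) and higher (red) by the ratio of observed to expected CpG in the promoter window (x axis), for members with a mean of 10 to under 100 FPKM (left) and of at least 100 FPKM (right), with the number of members under each class. In the abundant class 48.2% of the CpG-poor members were called lower against 13.1% of the CpG-rich ones.

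The windows of abundant genes already described illustrate the contrast of the class at 100 FPKM or more, with CG in capitals. They do not stand for less abundant members. At 10 to under 100 FPKM, rises of at least 2-fold were more frequent among CpG-poor than among CpG-rich members. CG is its own reverse complement, so both strands are covered, and the genes were picked after their values were seen. Pabpn1l lies at chr8:122622686-122622985 (minus strand), Obox1 at chr7:15547007-15547306 (plus), Oog3 at chr4:144162602-144162901 (minus) and Nlrp9b at chr7:20007773-20008072 (plus), and these genes fell. Gtf2b lies at chr3:142764997-142765296 (plus) and Cks2 at chr13:51644982-51645281 (plus), and these genes rose.
Pabpn1l: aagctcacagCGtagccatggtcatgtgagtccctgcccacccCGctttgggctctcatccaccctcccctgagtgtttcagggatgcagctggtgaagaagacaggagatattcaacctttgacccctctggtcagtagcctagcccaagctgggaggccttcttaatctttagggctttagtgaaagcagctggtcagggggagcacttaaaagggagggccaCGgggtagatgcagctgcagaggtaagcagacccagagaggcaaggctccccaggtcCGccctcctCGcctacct
Obox1: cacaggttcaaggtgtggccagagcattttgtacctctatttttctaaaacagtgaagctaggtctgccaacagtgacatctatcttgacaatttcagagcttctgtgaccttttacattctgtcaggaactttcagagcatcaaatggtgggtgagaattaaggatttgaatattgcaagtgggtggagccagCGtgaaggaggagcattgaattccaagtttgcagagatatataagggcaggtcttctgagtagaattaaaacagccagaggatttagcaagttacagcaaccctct
Oog3: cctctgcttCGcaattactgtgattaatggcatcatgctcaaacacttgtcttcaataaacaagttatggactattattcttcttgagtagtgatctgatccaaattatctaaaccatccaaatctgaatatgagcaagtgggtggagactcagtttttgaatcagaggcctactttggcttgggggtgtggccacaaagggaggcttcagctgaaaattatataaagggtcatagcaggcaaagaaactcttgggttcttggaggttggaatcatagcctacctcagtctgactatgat
Nlrp9b: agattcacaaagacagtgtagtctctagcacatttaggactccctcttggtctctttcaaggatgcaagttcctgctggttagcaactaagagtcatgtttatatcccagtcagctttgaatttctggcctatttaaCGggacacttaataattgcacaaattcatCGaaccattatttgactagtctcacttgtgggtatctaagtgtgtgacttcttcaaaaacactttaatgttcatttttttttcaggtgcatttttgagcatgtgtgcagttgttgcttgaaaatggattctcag
Gtf2b: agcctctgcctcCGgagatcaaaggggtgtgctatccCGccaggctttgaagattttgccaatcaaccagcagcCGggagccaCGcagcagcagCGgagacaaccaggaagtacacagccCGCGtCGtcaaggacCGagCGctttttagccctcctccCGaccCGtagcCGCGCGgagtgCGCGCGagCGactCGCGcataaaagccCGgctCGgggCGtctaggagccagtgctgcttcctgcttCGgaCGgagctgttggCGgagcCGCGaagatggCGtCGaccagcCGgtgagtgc
Cks2: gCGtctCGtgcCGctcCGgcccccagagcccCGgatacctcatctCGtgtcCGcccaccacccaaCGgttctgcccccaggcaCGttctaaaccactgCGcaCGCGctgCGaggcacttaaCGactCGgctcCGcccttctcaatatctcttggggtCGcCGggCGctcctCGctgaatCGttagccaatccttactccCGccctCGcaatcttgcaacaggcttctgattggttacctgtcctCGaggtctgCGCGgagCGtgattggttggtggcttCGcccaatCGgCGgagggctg
Of the 27025 genes with a window 94.2% held at least 1 CG, with a median of 7, and the median over the members matched by symbol was 21. Pabpn1l held 5 CG in 300 bases, Obox1 and Oog3 1 each and Nlrp9b 2, whereas Gtf2b held 32 and Cks2 30. Observed over expected CpG was 0.200 for Pabpn1l, 0.0765 for Obox1, 0.0788 for Oog3 and 0.185 for Nlrp9b, and 1.02 and 1.03 for Gtf2b and Cks2. Of all genes with a window, 36.5% had a ratio of at least 0.6, and of the members 71.0%.

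The direction of the calls varied with level. Members with a mean under 1 FPKM were called higher in 52.8% and lower in 6.84%, and those at 300 FPKM or more in 28.2% and 27.5%. The filter lets scarce genes in through whichever group is high, so the first pair of shares is partly fixed by it.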

How the data were processed

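RNA of mouse oocytes and embryos was extracted with the RNeasy micro kit and made into libraries with NEBNext Ultra reagents, per the labels' protocols. The authors deposited 1 table of FPKM values, and CASAVA 1.4, TopHat2 2.0.12, Cufflinks 2.2.1, SAMtools and Bismark 0.7.6 are named with the builds mm10 and mm9, per the submitters' processing notes. The annotation, strand setting, spike-in amount and oocytes per RNA library were not given in the sources used here, and bisulfite data were not analysed here. FPKM keeps no total count, so no counting interval is given.

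From the deposited FPKM, log2(FPKM + 1) was fitted with limma 3.58.1 in R 4.3.3, 1 mean per group over all 23 libraries in 8 groups, on 13731 genes at FPKM 1 or more in at least 2 libraries. Tests were two-sided with Benjamini-Hochberg adjustment, called under 0.05. The fit was tested on simulated data with independent noise, which cannot speak to scaling or library composition. A fold change on this scale understates the change of scarce genes. The spike-in sums were compared with scipy 1.17.1. The 95 control entries were left out of the gene tests. No value column was without a sample. Named are Cxxc1, the 20 largest rises and 20 largest falls at a mean FPKM of 5 or more without overlap, the 10 largest gains and losses in FPKM, up to 4 called members of each of 61 lists, 8 genes a direction that differed between models, and the 10 highest genes on in a single group. Genes with date-like names and gene models were not described one by one. Some named genes are not reported here. Members and lists were chosen with earlier results of these data known. Promoter windows are RefSeq's on GRCm38.p6, and members were matched by symbol (99.6%). Alternatives were another pseudocount, no filter, a filter on the 6 libraries, median-of-ratios and quantile scaling, smaller sets of libraries, array weights, a replicate block, leaving out each library, and equal ERCC sums.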

Additional observations from a re-analysis of the deposited data

Results flagged for a closer look

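In 16 genes the deletion effect differed between Gdf9-Cre at 3 months and Zp3-Cre at 3 weeks by the limma test of the difference, given here as Gdf9-Cre minus Zp3-Cre on the log2 scale. The effect was higher with Gdf9-Cre in Inha by 3.06, Sox3 by 2.87, Cox8c by 2.65, Sepp1 by 2.1, Elf3 by 2.02, Ccdc109b by 1.98, Usp17le by 1.96 and Ndufa4l2 by 1.92. It was lower with Gdf9-Cre in Tceal8 (-2.86), Zfp109 (-2.68), Rbm44 (-1.64), Ldlrad3 (-1.57), Mt1 (-1.47), Zfp108 (-1.33), Ceacam20 (-1.29) and Cyp2c53-ps (-1.27). Cre driver, female age and library preparation cannot be told apart in these differences.

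The control entry RGC-CRE had a mean of 4.26 FPKM in the 3 Zp3-Cre libraries, and was listed at 0 in the 3-week wild-type libraries and in all 6 libraries of 3-month oocytes.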

How the results depend on the processing

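The counts of members called as deposited were 4465 higher and 2069 lower, with 1417 and 420 at 2-fold. Median-of-ratios scaling gave 2771 higher, with 818 and 674 at 2-fold, and quantile normalization gave 2796 higher, with 751 and 730. Equal ERCC sums, an alternative chosen after seeing the data and run for these counts and the gene values given as ERCC-scaled, gave 565 higher and 9459 lower, with 114 and 6498 at 2-fold. That fit held only the 6 libraries of 3-month oocytes. Deposited values in such a fit gave 5428 higher and 2585 lower, with 1433 and 418 at 2-fold. Leaving out 1 library of 3-month oocytes gave 3905 to 4081 higher and 1779 to 1851 lower, with 1343 to 1503 and 413 to 446 at 2-fold.

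The difference between the models, 427 higher and 229 lower, moved with most settings. It had 182 higher with a pseudocount of 0.1, 194 with median-of-ratios scaling, 192 and 408 lower with quantile normalization, 1622 and 734 with GV libraries alone in the fit, 882 and 387 without deletion 2-cell library 3, and 2127 and 953 with array weights. Leaving out single libraries gave 222 to 484 and 117 to 259. The count moved by over 1.5 times without any 1 of the 3-month wild-type or 3-week wild-type libraries, Gdf9-Cre library 1 or 2, or Zp3-Cre library 2. The cause was not tested.

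Tceal8, not called with Gdf9-Cre, changed sign under median-of-ratios scaling (-0.058, adjusted p = 0.946, limma). Of 270 named genes called, 240 kept the call and direction in the 16 settings run for them, which leave out the equal ERCC sums. Same-numbered 3-month libraries did not deviate together (r = -0.0122, -0.0259 and 0.0407), so the numbers were not taken to pair. A replicate block gave 5280 higher and 2415 lower, 1441 and 419 at 2-fold, and 1034 and 435 for the difference. In 6 libraries, FPKM without counts leaves the depth behind scarce genes unknown.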

Other observations

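On GRCm38.p6, chromosome X had the highest share of members that rose at least 2-fold, 19.7% of 395, against 8.67% to 17.0% on the autosomes. In genome order, 9 neighbouring members on chromosome 7 from Nlrp9b to Nlrp4e, most of them Vmn1r genes and gene models between the Nlrp genes, all fell at least 2-fold. Runs of neighbours that all rose at least 2-fold included 5 Zscan4 genes on chromosome 7, and 6 and 4 histone genes on chromosome 13. Copies in these runs share sequence, and reads could be divided between them.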
